A study of Mus musculus with 29 samples.

Results

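Clustered protocadherins, the cell-surface proteins encoded in the alpha, beta and gamma gene clusters, were followed through 9 ages of the mouse hypothalamus. Members were the genes whose symbol starts with Pcdha, Pcdhb or Pcdhg and goes on with an isoform code, which gave 58 of the 24499 gene symbols counted. Of these, 14 belong to the alpha cluster (12 alternate isoforms and the 2 C-type isoforms Pcdhac1 and Pcdhac2), 22 to the beta cluster and 22 to the gamma cluster (12 of the A kind, 7 of the B kind and the 3 C-type isoforms Pcdhgc3, Pcdhgc4 and Pcdhgc5). All lie on the plus strand of chromosome 18 (GRCm38), with the alpha genes at 36930285 to 37188897, the beta genes at 37264998 to 37521419 and the gamma genes at 37661775 to 37841873. The mice were wild-type C57BL/6, labelled male and housed singly in a light and dark cycle, and no age received a treatment. The hypothalamus was taken near the middle of the light phase. Of the 28 libraries used, 2 came from mice 24 months old, 4 from each of 4 and 5 weeks, and 3 from each of the other ages, which were postnatal day 5 (P5), 3 weeks, and 2, 6, 12 and 18 months. Nothing in the labels ties a library to a separate animal, so the p-values speak for the scatter of these libraries, which may be technical.

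Each neuron switches on a few alternate isoforms from the clusters, chosen largely at random by looping of one promoter to a distant enhancer with the help of CTCF and cohesin, and the set it carries gives its surface an identity. The proteins of one cell bind like proteins on another, which lets sister branches of a neuron recognise and avoid each other, and shapes branching, synapse formation and neuron survival. The C-type isoforms are regulated apart from the alternate ones and are expressed more constantly. In the alpha and gamma clusters each isoform joins its own first exon to constant exons shared by the cluster, while the beta genes each stand as a single exon without such a shared end. Reads in the shared exons cannot be assigned to 1 isoform, and how the deposited counts treated them is not given in the sources used here.

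Several measured properties of the libraries bear on the values that follow. Depth was 24661631 to 39783779 gene counts, of which the 58 genes took 0.0810 to 0.0878% at P5, 0.0441 to 0.0474% at 3 weeks and 0.0553 to 0.0571% at 24 months. At 2 months, replicate 11 stood apart with 0.0303%, against 0.0439% and 0.0443% in the other 2 libraries, and it was the lowest of the 28 libraries for 10 alpha, 12 beta and 17 gamma genes. The 2-month libraries also held little of the labelled tissue's own neuron RNA: 11 hypothalamic neuron markers summed to 72.3 to 197 CPM (counts scaled to library size), against 581 to 959 CPM at 5 weeks, and 6 midbrain and hindbrain markers to 49.9 to 57.3 CPM, against 6.05 to 9.50. Over the other 25 libraries the hypothalamic markers summed to 186 to 1578 CPM. The summed level of 5 markers of the neighbouring thalamus was 1140 to 1368 CPM at 2 months and 557 to 1491 CPM over the other 25 libraries. At P5, replicates 1 and 2, though labelled male, held the X-inactivation RNA Xist at 745 and 816 CPM and no count of the Y-linked Ddx3y. Replicate 3 held Xist at 0.228 CPM and Ddx3y at 56.2 CPM. Titles of the libraries of 3 to 5 weeks begin with one prefix and those of P5 and of 2 to 24 months with another, and what the prefix marks is not stated in the labels.

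Levels between genes were compared as CPM per kilobase of exon that no other gene shares. This scale takes the counts to come from those exons, which was not tested. The order at the top turned with age. At P5 Pcdhgc4, a C-type isoform which interneurons need to survive, led with 54.3 ± 4.69 CPM per kilobase (SD, n = 3), above Pcdhgc3 with 38.3 ± 2.28. At 3 weeks Pcdhgc3 led with 25.1 ± 0.97, above Pcdhgc4 with 16.9 ± 2.26, and it kept the higher mean at every later age. Pcdhac2, used by serotonergic axons to space themselves, was the third at each of the 9 ages, with 18.8 ± 2.96 at P5 and 9.05 ± 0.59 (n = 2) at 24 months. The fourth place went to Pcdhga11 at P5 (11.1 ± 0.66), to the C-type Pcdhgc5 at 3 weeks (8.14 ± 2.19) and to Pcdhb9 at 24 months (8.61 ± 1.16, against 5.04 ± 0.032 for Pcdhgc5). At 24 months the values of Pcdhb9 and Pcdhac2 lay within their spread. Over all 28 libraries the fifth C-type isoform, Pcdhac1, had a mean of 1.02, and Pcdhb1 (0.222) and Pcdha8 (0.229) were the lowest genes with counts. The means over 28 libraries pool ages that differ and carry no error. Pcdha4, Pcdha6 and Pcdha7 had 0 counts in all 28 libraries, where 3 counts made about 0.1 CPM. Each of these 3 overlaps a gene model that runs through to the end of the gamma cluster (Gm37013, Gm38666 and Gm38667), which held 8, 12 and 18 counts over the 28 libraries. The 3 zeros therefore do not show that those isoforms were not expressed. The remaining 55 passed the filter on low counts.

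Over the 9 ages 50 of the 55 differed in edgeR's quasi-likelihood test at an adjusted p of 0.05 (called, below), 11 of 11 alpha, 20 of 22 beta and 19 of 22 gamma genes, where 76.8% of all genes were called.

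All 3 clusters had lower sums at 3 weeks than at P5, the alpha cluster by the largest factor and the beta cluster by the smallest. The alpha genes summed to 159, 141 and 153 CPM in the 3 P5 libraries and to 67.3, 66.6 and 66.6 CPM in those of 3 weeks, a 2.26-fold lower mean. The gamma genes summed to 465, 522 and 463 CPM at P5 and to 270, 270 and 254 CPM at 3 weeks, 1.82-fold lower. The beta genes summed to 193, 189 and 178 CPM at P5 and to 150, 137 and 139 CPM at 3 weeks, 1.31-fold lower. No library of 3 weeks reached a P5 library in any of these 3 sums. The ratio of the alpha to the beta sum was 0.75 to 0.86 at P5 and 0.45 to 0.49 at 3 weeks. The 2 ages also differ in title prefix, and the prefix and this age step cannot be told apart. In bulk tissue, fewer cells of a type and less RNA per cell cannot be told apart.

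**Figure D1:**
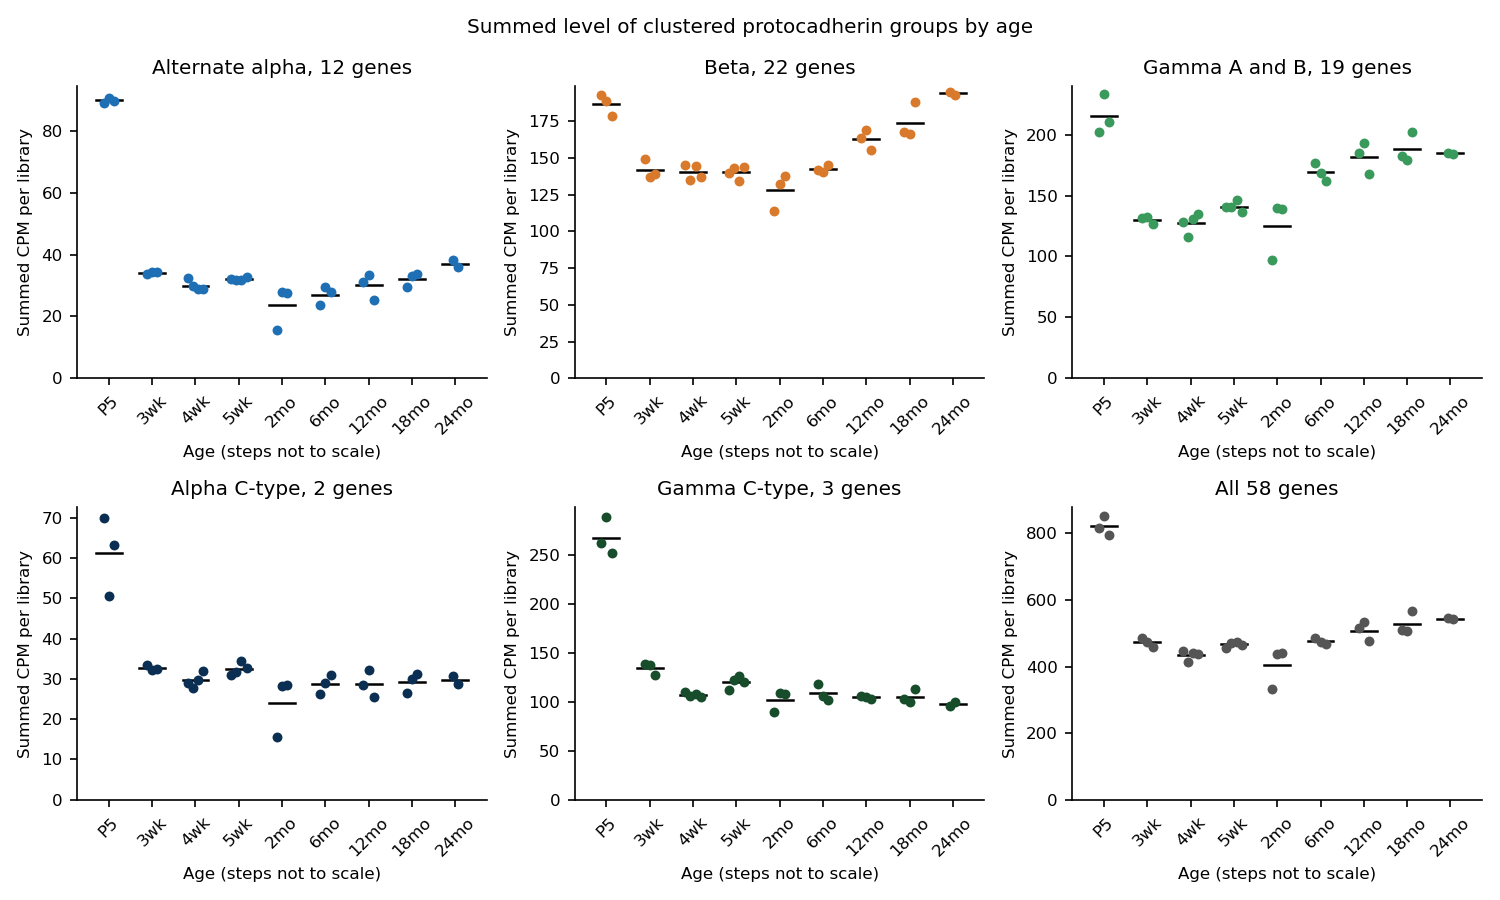
Summed CPM (y axis, from 0) of 6 groups of clustered protocadherins in each library (points) at the 9 ages (x axis, steps not to scale), with the mean of each age as a bar. P5 has the highest mean in every panel except beta, which returns at 24 months (193 and 195 CPM) to the P5 level (178 to 193 CPM).

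Gene by gene, 45 of the 55 tested members were called, 43 lower and 2 higher at 3 weeks. Of all 16916 genes tested, 59% were called, 29.3% lower and 29.8% higher, so being called was common in either direction. Their median log2 change was -0.65, against -0.01 over all genes. For 43 members every 3-week library lay below every P5 library, and for 2 every one lay above, where the shares of all genes were 33.6% and 33.4%. With P5 replicate 3 as the only P5 library, and its spread taken to be like that of the other ages, 28 members were called, 27 of them lower, where 7742 of 17196 genes were called.

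All 9 tested alternate alpha genes were called lower, with a median log2 change of -1.32. Pcdha5 fell most, from 14.9, 14.03 and 14.6 CPM at P5 to 3.67, 3.94 and 4.34 CPM at 3 weeks, a log2 change of -1.86 ± 0.16 (SE; adjusted p = 5.03e-10). Pcdha2 came next, with 14.3 ± 0.94 CPM (SD, n = 3) at P5 and 4.48 ± 0.20 at 3 weeks. Pcdha12 and Pcdha9, the alternate alpha genes of highest mean CPM, fell 2.49-fold and 2.14-fold. The 3 P5 libraries and the 3-week libraries did not overlap for any of these 4 genes.

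The beta genes split. Of 22, 14 were called lower, 1 higher and 7 neither, with a median log2 change of -0.45. Pcdhb4 fell from 6.45, 5.95 and 5.67 CPM to 2.92, 3.32 and 3.15 CPM, the largest fall among them (log2 -0.94 ± 0.18, adjusted p = 7.38e-05). Pcdhb7 went from 16.4, 16.9 and 15.03 CPM at P5 to 8.96, 9.03 and 7.29 CPM at 3 weeks, 1.91-fold lower (log2 -0.93 ± 0.12, adjusted p = 2.55e-07). Pcdhb14 alone among them was called higher, from 6.02, 6.87 and 7.74 CPM to 9.05, 9.10 and 8.24 CPM (log2 0.35 ± 0.12, adjusted p = 0.0127). The 2 beta genes of highest mean CPM were among those not called: Pcdhb17 held 18.7 ± 0.59 CPM at P5 and 16.5 ± 0.70 at 3 weeks (adjusted p = 0.0656), and Pcdhb9 13.2 ± 1.69 and 11.7 ± 1.79 (adjusted p = 0.201).

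Among the gamma genes, 11 of the 12 A isoforms and 5 of the 7 B isoforms were called lower and none of these 19 higher. Pcdhga11 fell from 27.2, 30.3 and 30.0 CPM to 12.7, 13.8 and 12.8 CPM, 2.23-fold (log2 -1.16 ± 0.11, adjusted p = 1.04e-09). Pcdhga7 (log2 -0.31 ± 0.16), Pcdhgb4 and Pcdhgb8 were the 3 that were not called. Pcdhgb8, the scarcest B isoform, held 1.81 ± 0.19 CPM at P5 and 1.62 ± 0.24 at 3 weeks.

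**Figure D2:**
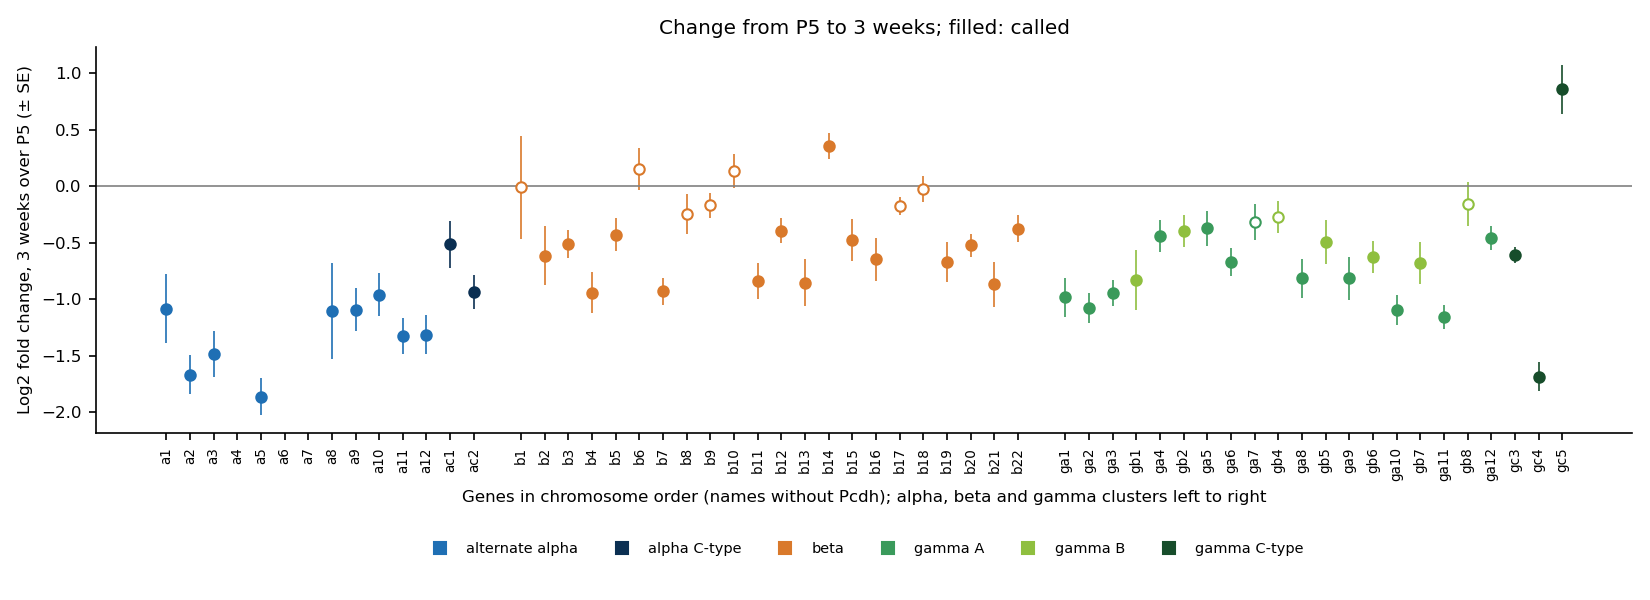
Log2 fold change from P5 to 3 weeks with its SE (y axis) for the tested members in chromosome order (x axis), coloured by kind, filled where called. The alternate alpha genes sit between -1.86 and -0.96, the beta genes range from -0.94 to 0.35, and the 3 gamma C-type genes span the largest distance, from -1.69 to 0.86.

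The 5 C-type isoforms did not move as a block. Pcdhgc4 fell from 148, 173 and 152 CPM at P5 to 44.4, 56.5 and 46.2 CPM at 3 weeks, 3.22-fold (log2 -1.69 ± 0.13, adjusted p = 5.61e-11), and stood at 31.5 and 34.9 CPM at 24 months. Its neighbour Pcdhgc3 fell 1.53-fold over the same step, from 98.4 ± 5.85 CPM to 64.4 ± 2.50. Pcdhgc5, the last gene of the cluster, went the other way, from 12.4, 13.9 and 9.13 CPM to 27.8, 19.2 and 17.0 CPM (log2 0.86 ± 0.22, adjusted p = 0.00186). So Pcdhgc4 exceeded Pcdhgc5 by 11.9 to 16.6 times at P5 and by 1.59 to 2.95 times at 3 weeks, without overlap. Pcdhgc5 libraries spread widely later on, from 13.2 to 25.1 CPM at 6 months.

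In the alpha cluster both C-type isoforms fell. Pcdhac2 went from 65.0, 47.3 and 58.5 CPM to 30.5, 29.6 and 29.2 CPM (log2 -0.94 ± 0.15, adjusted p = 8.46e-06). Pcdhac1 went from 4.30 ± 0.83 CPM to 3.00 ± 0.26 (log2 -0.52 ± 0.21, adjusted p = 0.0348), with all 3-week libraries below all P5 libraries. Serotonergic neuron markers (4 genes) summed to 12.998 to 44.7 CPM at P5 and 5.74 to 7.08 CPM at 3 weeks, and whether their level bears on that of Pcdhac2 was not tested.

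**Figure D3:**
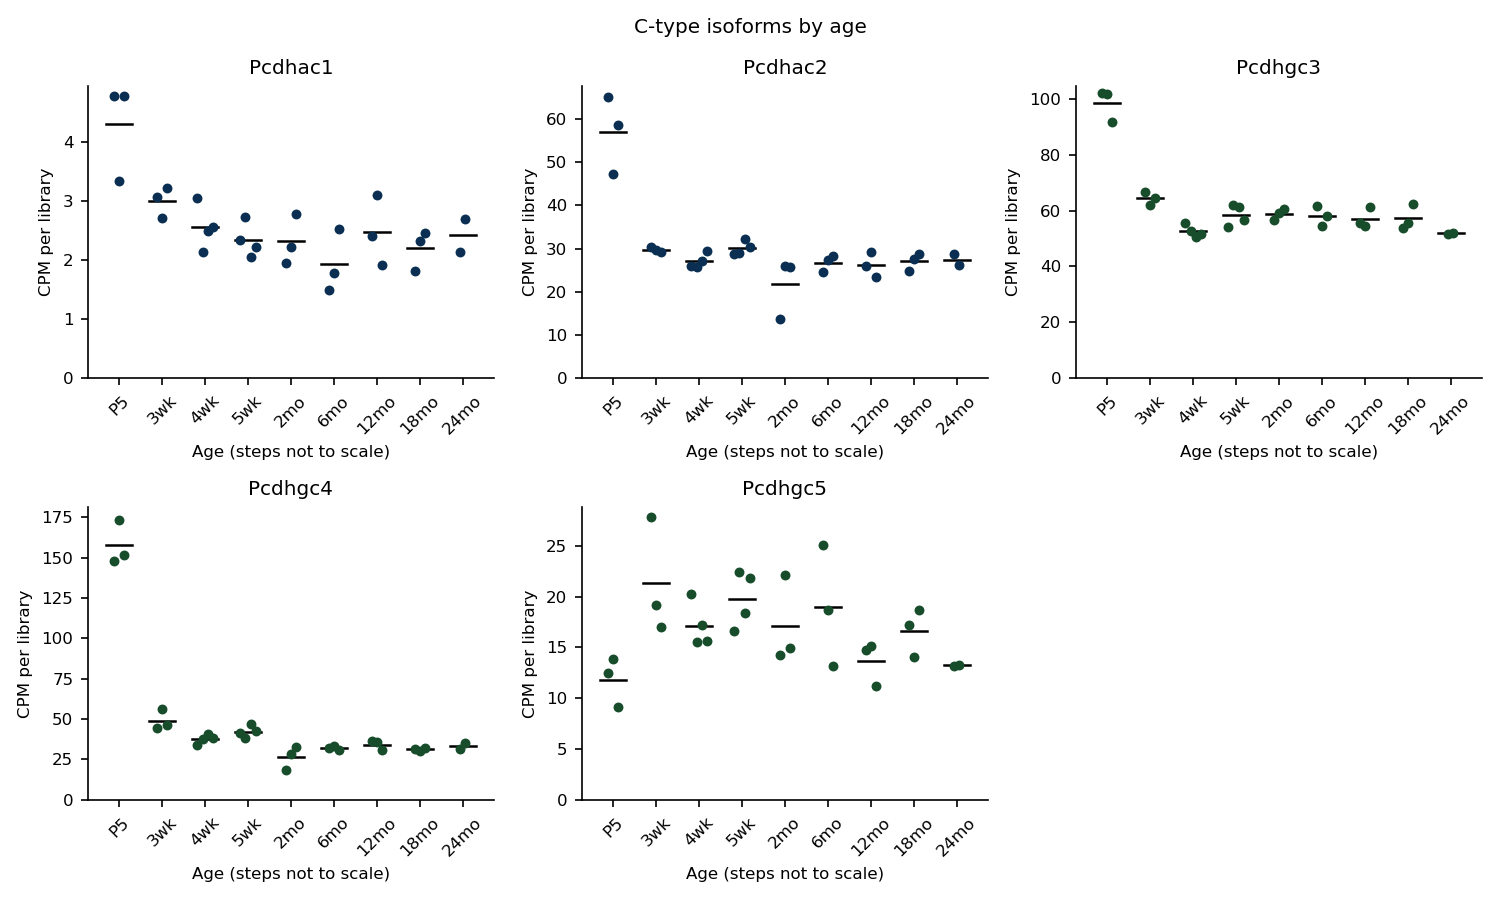
CPM of the 5 C-type isoforms (y axis, from 0, a scale of its own for each gene) in each library (points) at the 9 ages (x axis, steps not to scale), with the mean of each age as a bar. Pcdhgc4 drops from a P5 mean of 158 CPM to 49.0 CPM at 3 weeks, while Pcdhgc5 is lowest at P5 with a mean of 11.8 CPM.

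Levels of cell type markers changed over the same step. The summed level of 8 immature neuron markers went from 8686 to 9436 CPM at P5 down to 1386 to 1725 CPM at 3 weeks, with 8 of 8 called lower. That of 8 general neuron markers went from 6513 to 7136 CPM to 4530 to 4922 CPM, with 3 of 8 called higher and 4 lower. That of 8 oligodendrocyte markers went from 207 to 315 CPM to 19211 to 24094 CPM, with 8 of 8 higher. Of 6 microglia markers and 6 blood markers, all were higher too. Set against the neuron markers, the beta sum was 25.4 to 28.9 CPM per 1000 CPM of these markers at P5 and 28.2 to 30.7 at 3 weeks, which overlap. The alpha sum was 21.7 to 22.3 and 13.5 to 14.7, and the gamma sum 65.1 to 80.1 and 51.6 to 59.7, both lower at 3 weeks without overlap. The 8 neuron markers moved both ways, so their sum is not a measure of neuron number. These ratios do not test the part of cell makeup in the members' changes, which was not tested.

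From 3 to 5 weeks none of the 55 members was called in edgeR, where 2.15% of all genes were, 4 had an unadjusted p below 0.05, where 11.7% of all genes had, and DESeq2 called 1, where it called 479 of 16910 genes. The median log2 change was 0.02. The sums were 63.0 to 66.2 CPM for alpha, 134 to 144 CPM for beta and 253 to 273 CPM for gamma at 5 weeks. The gene Rn7s2 set these libraries apart, with 1.39 to 2.03 CPM at 3 weeks and 23.9 to 28.9 CPM at 5 weeks. Between these 2 ages alone, that difference between library sets and age cannot be told apart.

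From 5 weeks to 2 months, 5 members were called, all lower, where 16.6% of all genes were called and 9.43% were called lower: Pcdha5, Pcdhac2, Pcdhga3, Pcdhga4 and Pcdhgc4. Pcdhgc4 held 41.6, 38.3, 46.8 and 42.3 CPM at 5 weeks and 18.6, 28.1 and 32.4 CPM at 2 months (log2 -0.68 ± 0.12, adjusted p = 0.000772). Pcdhac2 held 28.7 to 32.3 CPM and then 13.7, 25.97 and 25.7 CPM. The lowest value came from replicate 11 in both. Without that replicate 1 member was called, without 5-week replicate 3 there were 3, without 2-month replicate 12 or 13 there were 8, and with only these 2 ages in the fit 1 was called. Over all genes the calls in these fits were 2515, 1778, 2546, 2409 and 1534, against 2802 with every library. The hypothalamic and midbrain markers of the 2-month libraries, given above, moved over the same step, and their part in these changes was not tested. This step, too, crosses the title prefix, and the 2 cannot be told apart.

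From 2 to 6 months, 8 members were called, all higher, where 3.59% of all genes were called and 1.77% were called higher. Of the 8, 7 were gamma genes (Pcdhga2, Pcdhga3, Pcdhga4, Pcdhga6, Pcdhga7, Pcdhgb2 and Pcdhgb6) and the other was Pcdhb9. Pcdhga4 held 5.29, 8.22 and 9.47 CPM at 2 months and 13.5, 14.6 and 11.8 CPM at 6 months (log2 0.79 ± 0.14, adjusted p = 0.00532). Pcdhga6 held 7.90, 9.94 and 8.85 CPM and then 14.95, 13.8 and 14.7 CPM (log2 0.70 ± 0.12, adjusted p = 0.00475). The 6-month libraries of both genes also lay above all of their 5-week libraries, at 10.2 to 10.8 CPM and 8.52 to 9.56 CPM. Without 2-month replicate 11 the count was 2, without 6-month replicate 33 it was 2, without 6-month replicate 32 it was 3, and with only these 2 ages in the fit it was 0. Calls over all genes dropped with them, from 608 to 88, 51, 189 and 0. Of the 11 hypothalamic neuron markers, 7 were called higher over this step. Replicate 34 stood apart at 6 months with 34.1 CPM of midbrain and hindbrain markers and 43.5 CPM of serotonergic markers, against 4.58 to 6.65 CPM and 5.83 to 6.75 CPM in the other 2 libraries. The part of these markers in the members' changes was not tested.

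Set directly against P5, the 6-month libraries showed what remained of the early fall. They share the P5 libraries with the 3-week comparison, so the values are given side by side. At 6 months 39 of 55 members were called, 33 lower and 6 higher, where 60.5% of all genes were called, 30.2% lower and 30.3% higher. Pcdha5 had a log2 change of -2.37 ± 0.17 at 6 months beside -1.86 at 3 weeks, Pcdhgc4 -2.30 ± 0.13 beside -1.69, and Pcdhga11 -1.09 ± 0.10 beside -1.16. Pcdha3 joined the largest changes at 6 months with -2.12 ± 0.21 beside -1.49, and Pcdhb7 was the lowest of the beta genes with -1.25 ± 0.12 beside -0.93. The 6 higher members were Pcdhb9, Pcdhb14, Pcdhga5, Pcdhga6, Pcdhga7 and Pcdhgc5. Pcdhga6 held 9.53, 13.3 and 9.91 CPM at P5, less at 3 weeks (6.22 to 7.26 CPM), and 13.8 to 14.95 CPM at 6 months (log2 against P5 0.41 ± 0.12, adjusted p = 0.00483). Its 6-month libraries thus lay above those of both younger ages. None of the 7 gamma B isoforms was called at 6 months against P5. The P5 and 6-month libraries share a title prefix.

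In adult life 12 of the 22 beta genes rose with age and no C-type isoform was called. The adult trend is the slope of log2 expression on age over the 14 libraries from 2 to 24 months. It was called for 21 of 55 members, all rising, where 7.43% of the 16633 genes tested were called, 3.08% rising and 4.35% falling. Of the 21, 12 were beta genes, 4 alternate alpha genes (Pcdha5, Pcdha8, Pcdha10 and Pcdha11) and 5 gamma A genes (Pcdhga1, Pcdhga2, Pcdhga3, Pcdhga5 and Pcdhga6). None of the 7 gamma B and none of the 5 C-type isoforms was called. The median slope of the members was 0.021 log2 per month, that of all genes 0.00012, and 51 members had a slope above 0.

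Pcdhb9 gave the smallest adjusted p among the beta genes. It held 11.4, 11.6 and 11.4 CPM at 2 months, 15.8 to 17.4 CPM at 6 months, 18.4 to 20.5 CPM at 12 months, 20.9 to 24.9 CPM at 18 months, and 23.8 and 28.8 CPM at 24 months. Each age lay above the one before without overlap up to 18 months, and its slope was 0.051 ± 0.005 log2 per month (adjusted p = 0.000711). Pcdhb14 held 6.89 to 8.20 CPM at 2 months and 14.7 and 15.9 CPM at 24 months (slope 0.043 ± 0.005, adjusted p = 0.00141). Pcdhb6 held 1.96 to 3.25 CPM and then 6.54 and 5.31 CPM (slope 0.052 ± 0.008, adjusted p = 0.00517).

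Pcdhb1, the first and scarcest beta gene, had the steepest slope of the members, 0.136 ± 0.022 (adjusted p = 0.00625), from low counts. It held 0.073, 0.148 and 0.116 CPM at 2 months, from 10 counts in all, 0.196 to 0.575 CPM at 6 months, 0.667 to 0.950 CPM at 12 months, 0.688 to 1.67 CPM at 18 months, and 1.41 and 1.58 CPM at 24 months, from 100 counts. Both 24-month libraries lay above every P5 library (0.419 to 0.518 CPM).

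Among the alternate alpha genes Pcdha10 held 1.31 to 1.98 CPM at 2 months and 3.34 and 3.70 CPM at 24 months (slope 0.046 ± 0.008, adjusted p = 0.00758), against 5.48 to 5.90 CPM at P5. Pcdha8, the scarcest of them with counts, had a slope of 0.065 ± 0.019 (adjusted p = 0.044), from 0.109 to 0.562 CPM at 2 months and 1.03 and 0.940 CPM at 24 months. This slope, too, rests on low counts: the 0.109 CPM of 2-month replicate 11 came from 3 counts.

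The 5 rising gamma genes lay among the first 8 of the 22 genes along that cluster. Pcdhga1, the first gene, held 1.89 to 3.43 CPM at 2 months, 2.70 to 3.08 CPM at 6 months and 4.51 to 5.23 CPM at 12 months (slope 0.049 ± 0.011, adjusted p = 0.0135). Pcdhga2 held 4.13 to 6.34 CPM at 2 months, 7.33 to 8.98 CPM at 6 months and 11.5 and 11.7 CPM at 24 months, the last near its P5 level of 11.5 to 12.5 CPM. Pcdhga11, far along the cluster, held 11.5 to 15.7 CPM at 2 months and 13.3 and 13.04 CPM at 24 months, and was not called (slope -0.0030 ± 0.0049, adjusted p = 0.735). Over the 22 beta genes the slope ran against the order along the chromosome with a Spearman rho of -0.68, over the 19 gamma A and B genes with -0.79, and over the 9 tested alternate alpha genes with -0.37. From 6 to 24 months alone the values were -0.69, -0.73 and -0.12. Against mean CPM in place of order, the rho of the slope from 2 months on was -0.42 for beta and 0.06 for gamma A and B. For alternate alpha it was -0.80, so there the scarcer genes had the steeper slopes. These are descriptions across neighbouring genes that share libraries, a few of which have low counts, and they carry no p.

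**Figure D4:**
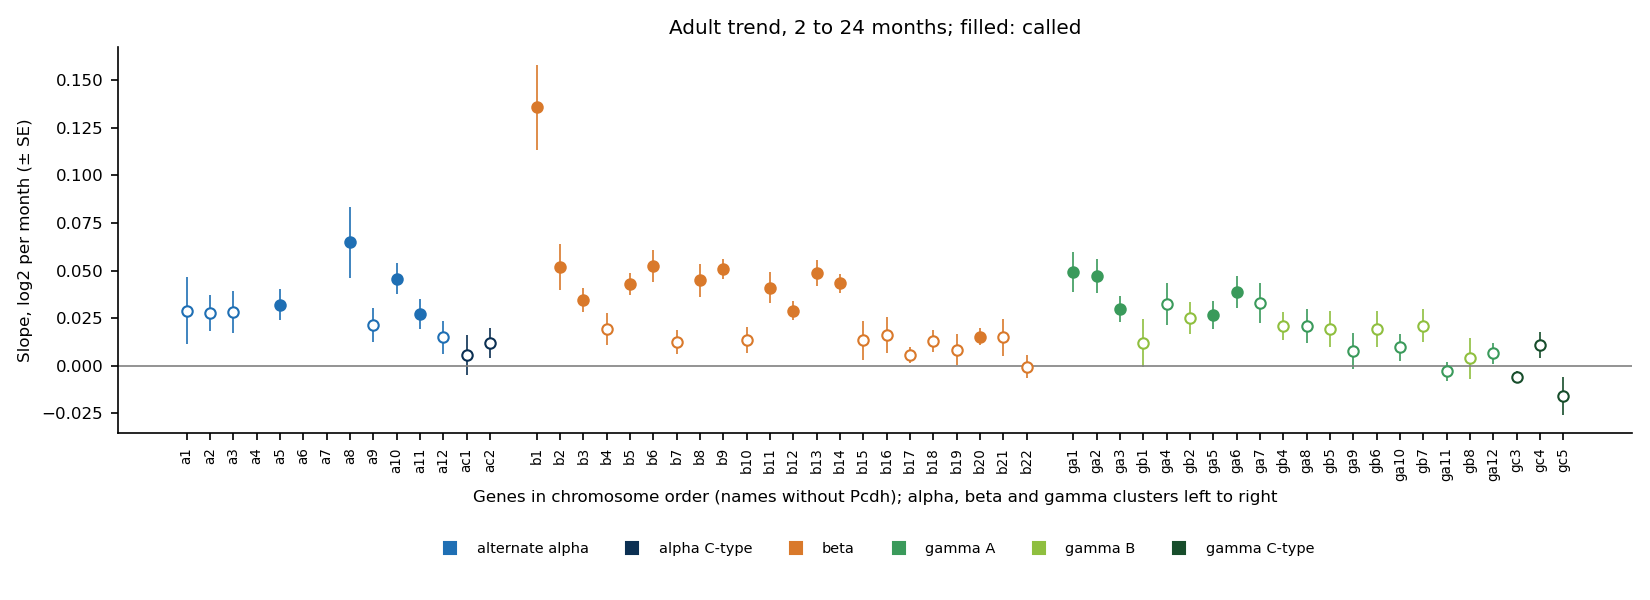
Monthly log2 slope with its SE over the libraries of 2 to 24 months (y axis) for the tested members in chromosome order (x axis), coloured by kind, filled where called. Slopes in the beta and gamma clusters are higher at the start of each cluster, with 0.136 for Pcdhb1 and 0.049 for Pcdhga1, and reach -0.00062 for Pcdhb22 and -0.016 for Pcdhgc5 at the ends.

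The 2-month libraries weigh on the trend. Without any of them, from 6 to 24 months, no member and none of 16553 genes (0%) was called in edgeR, while 21 members had an unadjusted p below 0.05, all rising, where 4.12% of all genes had one and rose. Over these ages 22 of 22 beta genes and 11 of 11 alpha genes had a slope above 0, and 15 of 22 gamma genes. The smallest adjusted p was 0.0536, for Pcdhb9, with a slope of 0.038 ± 0.005 beside 0.051 from 2 months on. Between 6 and 18 months no member was called in edgeR (3 of all genes were, 0.0177%). In the same test 16 had an unadjusted p below 0.05 and were higher, where 3.69% of all genes did. DESeq2 called 2 members, where it called 18 of 16910 genes. For 16 members every 18-month library lay above every 6-month library and for none every one lay below, where the shares of all genes were 6.41% and 6%. Of the 16, 11 were beta genes.

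The sums showed the same adult course without the 2-month libraries. The beta genes summed to 140 to 145 CPM at 6 months, 156 to 169 CPM at 12 months, 166 to 188 CPM at 18 months, and 195 and 193 CPM at 24 months, so that no library of 12 to 24 months fell to the 6-month level. The 24-month mean was 1.36 times that of 6 months and 104% of that of P5. The alpha sum was 49.9 to 58.8 CPM at 6 months, 50.9 to 65.6 CPM at 12 and 56.0 to 65.1 CPM at 18, which overlap. At 24 months it was 69.0 and 64.8 CPM, above the 6-month libraries, and its mean was 44.3% of that of P5. The gamma sum was 264 to 296 CPM at 6 months and 281 and 285 CPM at 24 months, which overlap. Its parts went opposite ways. The gamma A and B isoforms summed to 162 to 177 CPM at 6 months and 184 to 185 CPM at 24 months, higher without overlap. The gamma C-type isoforms summed to 102 to 118 CPM and then to 96.2 to 100 CPM, lower without overlap. At 24 months the mean lay above that of P5 in 20 of the 58 genes, of which 12 were beta, 7 gamma and 1 alpha.

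**Figure D5:**
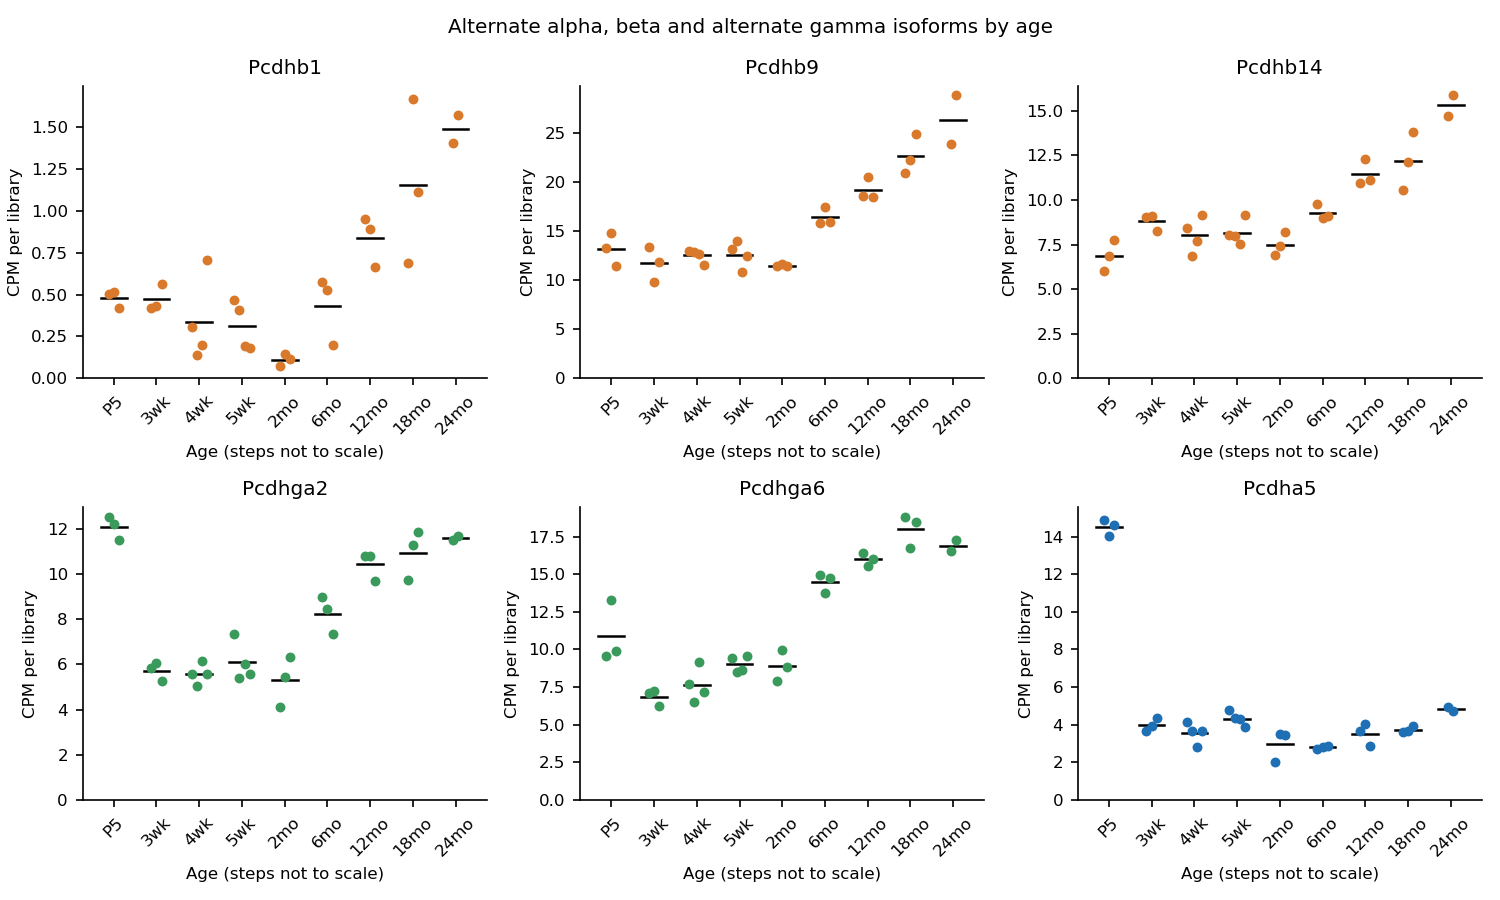
CPM of 6 members called in the adult trend (y axis, from 0, a scale of its own for each gene) in each library (points) at the 9 ages (x axis, steps not to scale), with the mean of each age as a bar. Pcdhb9 and Pcdhb14 end above every earlier mean (26.3 and 15.3 CPM), Pcdhga2 returns near its P5 level, and Pcdha5 stays at 4.84 CPM against 14.5 CPM at P5.

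Of the 43 members called lower at 3 weeks, 16 were among the 21 that rose in the adult trend. Of the 12 that were not called lower, 5 rose. These were Pcdhb1, Pcdhb6, Pcdhb8 and Pcdhb9, which were not called at 3 weeks, and Pcdhb14, which was called higher then. Rising in the trend was thus not confined to the members called lower at 3 weeks. The same overlap was not counted over all genes, so these counts show no link between the early fall and the adult rise.

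Levels of cell type markers moved in adult life too. Of 8 oligodendrocyte markers, 8 were called falling, and their sum was 15382 to 21929 CPM at 2 months, 8368 to 12107 CPM at 6 months and 6785 to 8437 CPM at 24 months. Of 6 midbrain and hindbrain markers, 5 were falling, of 11 hypothalamic neuron markers 1 and of 8 immature neuron markers 1 were rising, of 8 astrocyte markers 3 were falling, of 5 oligodendrocyte precursor markers 3 were falling, and of 8 neuron markers 1 was falling. Of 5 endothelium markers 1 was falling. The 5 choroid plexus markers, of which 0 were called, summed to 31.4 to 1020 CPM at 6 months, 955 to 3242 CPM at 18 months and 62.4 to 87.2 CPM at 24 months. The neuron markers summed to 4885 to 5501 CPM at 6 months and 4567 to 4966 CPM at 24 months. The beta sum per 1000 CPM of neuron markers was 26.4 to 29.02 at 6 months and 33.8 to 36.8, 33.7 to 39.9, and 38.8 to 42.7 at 12, 18 and 24 months, all above 6 months without overlap. The hypothalamic neuron markers took a like course: they summed to 393 to 517 CPM at 6 months, 721 to 1578 CPM at 12, 690 to 1136 CPM at 18, and 792 and 1092 CPM at 24 months, again all above 6 months without overlap. The immature neuron markers summed to 970 to 1082 CPM at 6 months and to 1124 and 1379 CPM at 24 months. The part of these rising and falling markers in the slopes was not tested.

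Pooled over the 3 clusters, the C-type isoforms held a smaller share at 24 months than at P5. They took 39.8 to 40.7% of the members' summed CPM at P5, 34.8 to 35.8% at 3 weeks, 28.4 to 29.7% at 6 months and 23.3 to 23.8% at 24 months. Pcdhgc4 alone took 32.6 ± 0.69% (SD, n = 3) of the gamma sum at P5, 18.5 ± 2.27% at 3 weeks and 11.7 ± 0.76% (n = 2) at 24 months. Not every C-type isoform lost share within its own cluster. Pcdhgc5 took 2.44 ± 0.40% of the gamma sum at P5, 8.03 ± 1.97% at 3 weeks and 4.68 ± 0.01% in the oldest libraries. Of the alpha sum, Pcdhac2 took 37.6 ± 3.78% at P5, 44.5 ± 0.75% at 3 weeks and 41.0 ± 0.87% in the oldest libraries. Within the beta cluster Pcdhb9 took 7.05 ± 0.74% at P5 and 13.6 ± 1.93% at 24 months.

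How evenly a cluster's counts spread over its isoforms was given as an effective number, the exponential of the Shannon entropy of their shares, which equals the number of isoforms when all shares are equal. For the whole gamma cluster it was 10.7 to 10.9 at P5, 13.3 to 13.5 at 3 weeks, and 16.9 and 17.0 at 24 months. The gamma A and B isoforms alone went from 16.2 to 16.3 at P5 to 16.8 and 16.9 at 24 months, of 19. The alternate alpha isoforms had 7.59 to 7.76 at P5 and 8.13 and 8.18 at 24 months, of 9 with counts. The beta genes had 18.9 to 19.2 at P5 and 18.6 to 19.1 at 24 months, of 22, which overlap.

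Genes that act with the protocadherins, and their relatives, were read from 5 lists, beside the shares of all genes called at 3 weeks (29.3% lower, 29.8% higher) and in the adult trend (7.43%). Of 19 genes of promoter choice and chromatin, 11 were called lower at 3 weeks and 1 higher. Those with the smallest p were the histone methyltransferase gene Setdb1 (log2 -1.01 ± 0.08) and the DNA methyltransferase genes Dnmt1 (-0.91 ± 0.08) and Dnmt3a (-1.45 ± 0.14). Ctcf, whose product binds the promoters and enhancers of the clusters, held 69.5 to 77.9 CPM at P5 and 54.2 to 60.8 CPM at 3 weeks. None of the 19 was called in the adult trend.

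Of 20 intracellular partners and signalling genes, 7 were called higher and 7 lower at 3 weeks, near the shares of all genes. The smallest p were those of Marcks (log2 -0.99 ± 0.09), Abi2 (-0.74 ± 0.08) and Nlgn1 (-0.73 ± 0.08), and none of the 20 was called in the trend. Of 8 genes of the proteolysis that releases the inner part of these proteins, 2 were called higher and 2 lower, also near those shares, among them the gamma-secretase subunit genes Ncstn (-0.39 ± 0.06), Psenen (0.58 ± 0.11) and Aph1b (-0.23 ± 0.06). Of 12 non-clustered protocadherins, 8 were called lower and 1 higher, led by Pcdh11x (-1.94 ± 0.13), Pcdh19 (-1.42 ± 0.10) and Pcdh18 (-1.02 ± 0.15). Of 15 classical and related cadherins, 8 were called lower and 2 higher, led by Cdh4 (-1.65 ± 0.10), Cdh13 (-0.91 ± 0.08) and Cdh8 (-1.34 ± 0.13). In the adult trend Pcdh7 and Pcdh9 fell, Cdh20 fell, Cdh22 rose and Aph1a fell, and no other gene of these 3 lists was called.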

How the data were processed

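RNA was measured by paired-end sequencing of hypothalamus. The tools named per the submitters' processing notes are HISAT2 2.1.0, an aligner, and HTSeq 0.9.1, a counter, with mm10 (GRCm38), and the deposited values are raw counts per gene symbol. Strand, mode and annotation of the counting: not given in the sources used here. Overlapping genes and near-identical isoforms are therefore uncertain. HTSeq summary lines (26.1 to 32.5% of a library) were removed. A 24-month library of 2377580 counts with no member counts was left out.

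CPM used TMM-scaled library sizes. Genes passing filterByExpr by age (16916) were fitted with edgeR 4.0.16 (R 4.3.3, robust quasi-likelihood, 1 mean per age, 28 libraries), a separate fit gave the adult trend (16633 genes), and p-values were two-sided and Benjamini-Hochberg adjusted over all genes within a comparison. An error after a log2 change is 1 SE, and after CPM 1 SD. The tests were also run on simulated counts with planted changes. Those counts held no outlying library and no change of tissue makeup, so the run does not bear on such effects. DESeq2 1.42.0, RLE scaling, no filter and left-out libraries were alternatives. Positions are RefSeq's, and exon lengths from GENCODE M21. Members and lists were chosen with earlier results of these data known. Named genes were the C-type isoforms, the 2 highest and 1 lowest in mean CPM of each other kind, the 2 highest and 2 lowest called changes per cluster and comparison, and up to 3 called genes of smallest p per list; a few others are named to complete a count.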

Additional observations from a re-analysis of the deposited data

Results flagged for a closer look

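In the groups of 4 libraries (4 and 5 weeks), 64 groups of values were examined for 1 library far from the other 3, and 5 stood apart by Dixon's criterion, where chance gives about 1 in 20. The gamma sum at 4 weeks was 221.8 CPM in replicate 2 and 238.5 to 240.2 CPM in the others. Pcdhgb7 at 4 weeks was 5.559 CPM in the same replicate and 6.34 to 6.489 CPM in the others. At 5 weeks replicate 1 stood apart for 3 genes, low for Pcdhb6 (2.336 against 3.214 to 3.258 CPM) and Pcdhgb8 (1.246 against 1.627 to 1.683 CPM) and high for Pcdhga1 (3.854 against 2.803 to 2.828 CPM).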

How the results depend on the processing

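RLE scaling, no filter on low counts and DESeq2 kept each count of called members within 1.5 times its value, except that DESeq2 called 1 from 3 to 5 weeks and 2 from 6 to 18 months where edgeR called 0. DESeq2 called 479 and 18 of all 16910 genes in these comparisons. With all 29 libraries, the added one holding 0 member counts, 0 members were called over the 9 ages, at 3 weeks or 6 months against P5, at 2 months against 5 weeks, at 6 against 2 months and in the trend. Calls over all genes in these fits were 484, 340, 524, 1, 0 and 0, in the same order. With only the 2 ages in the fit, 1 was called at 2 months and 0 at 6 against 2 months, where 1534 and 0 of all genes were. The trend gave 0 from 6 to 24 months. Chosen after seeing the data, it gave 16 from 2 to 18 months, and 6 when 2-month replicate 11 was also left out. Among all genes these fits called 764 of 16356 and 49 of 16470. With P5 replicate 3 alone, 28 were called at 3 weeks. Causes were not tested. Leaving out each library in turn gave 40 to 41 at 3 weeks against P5, 0 to 0 at 5 against 3 weeks, 1 to 8 at 2 months against 5 weeks, 2 to 11 at 6 against 2 months, 34 to 39 at 6 months against P5, 0 to 0 at 18 against 6 months and 15 to 21 in the trend. Calls over all genes with each library left out ranged from 9182 to 9390, 183 to 256, 1778 to 2858, 51 to 1348, 9506 to 9592, 0 to 6 and 443 to 1557, in the same order. Without TMM the alpha sum was 64.4 CPM at 3 weeks, and at 24 months the beta sum was 200.4 CPM and the gamma sum 292 CPM. With P5 replicate 3 alone the beta sum was 178 CPM and the effective number of alternate alpha isoforms 7.59. Per kilobase the effective number was 18.8 at P5 and 18.1 at 24 months for beta, and 16.3 at P5 for the gamma A and B isoforms. Of 908 values of named genes under these alternatives, 738 kept direction and call, and 170 kept direction without the call. Whether replicate numbers pair libraries cannot be told from the few values at hand. For P5 and 3 weeks the same-number r was 0.06 to 0.26, and that of other numbers -0.33 to 0.20. For 3 and 5 weeks the same-number r was -0.40 to -0.25, and that of other numbers -0.26 to 0.45. With the replicate block 44 members were called at 3 weeks and 0 at 5 weeks, where 10377 of 16022 and 15 of 15748 genes were. A term for the 2 sets of libraries seen at 3 to 5 weeks, split by their level of Rn7s2, gave 0 at 5 weeks, where 32 of 15950 genes were called. The first set held the 3-week libraries and 4-week replicates 1 and 2, the second 4-week replicates 3 and 4 and the 5-week libraries. Low counts limit Pcdhb1, with under 10 per library at 2 months, and Pcdha8, with 3 in 2-month replicate 11.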
